A study of Rattus norvegicus with 8 samples.

Results

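Of the 37209 gene rows in the count table of this series, 37 are integrin or laminin subunit genes, taken by name: the alpha and beta subunits of the integrins and the alpha, beta and gamma chains of the laminins. They fall into 8 leukocyte integrins, 17 wall-cell integrins, 1 platelet integrin and 11 laminins. The rats were Sprague Dawley, an outbred strain, and RNA was taken from 4 graft veins and 4 control veins 1 week after surgery. A graft vein had been joined over cuffs into the divided left common carotid artery and so carried arterial blood, while a control was the rat's own jugular vein of the opposite side, still carrying venous blood. The labels name no allele, drug or age, do not say whether veins were pooled, and number the grafts differently in titles and source names, so that grafts and controls were not matched by rat. One label line on RNA extraction names a brain region, but the 4 neuron markers examined summed to 0.77 to 2.79 CPM in grafts and 0.92 to 3.59 CPM in controls, while 5 smooth muscle markers summed to at least 1090 CPM in every library.

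Integrins are cell surface receptors made of 1 alpha and 1 beta subunit that bind matrix proteins or counter-receptors on other cells and link them through talin and kindlin to the actin cytoskeleton. Leukocytes carry the beta 2 and beta 7 integrins and alpha 4 beta 1, with which they arrest on endothelium and crawl through the wall, while smooth muscle cells, endothelial cells and fibroblasts hold on to collagen, laminin and fibronectin mainly with beta 1 integrins. Laminins are trimers of 1 alpha, 1 beta and 1 gamma chain and form the sheet of the basement membrane around each smooth muscle cell and under the endothelium.

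In grafts all 8 leukocyte integrins rose, while 5 of the 9 laminins tested fell. The 4 subunits grouped here as laminin receptors (Itga3, Itga6, Itga7 and Itgb4) fell too, and the collagen-binding integrins split. Counts per gene were compared with edgeR's quasi-likelihood test, and a gene is said to rise or fall where its Benjamini-Hochberg adjusted p over all 15464 genes tested was under 0.05. Of the 37 members, 35 passed the low-count filter of that test, 11 rose, 12 fell and 12 did not pass the threshold. Across all genes tested 42.3% were called, 21.0% up and 21.3% down, beside 23 of 35 members, and the members differed by class in direction. The median log2 fold change (graft minus control) was 3.40 over the leukocyte integrins, -0.22 over the 17 wall-cell integrins and -0.62 over the 9 laminins tested, against 0.01 over all genes. Among wall-cell integrins 3 rose and 7 fell, and among the laminins 0 rose and 5 fell. Scaling by library totals in place of TMM factors moved the median of all genes to 0.23, and 13 members then rose and 10 fell, so directions below are relative to the TMM scale.

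**Figure D1:**
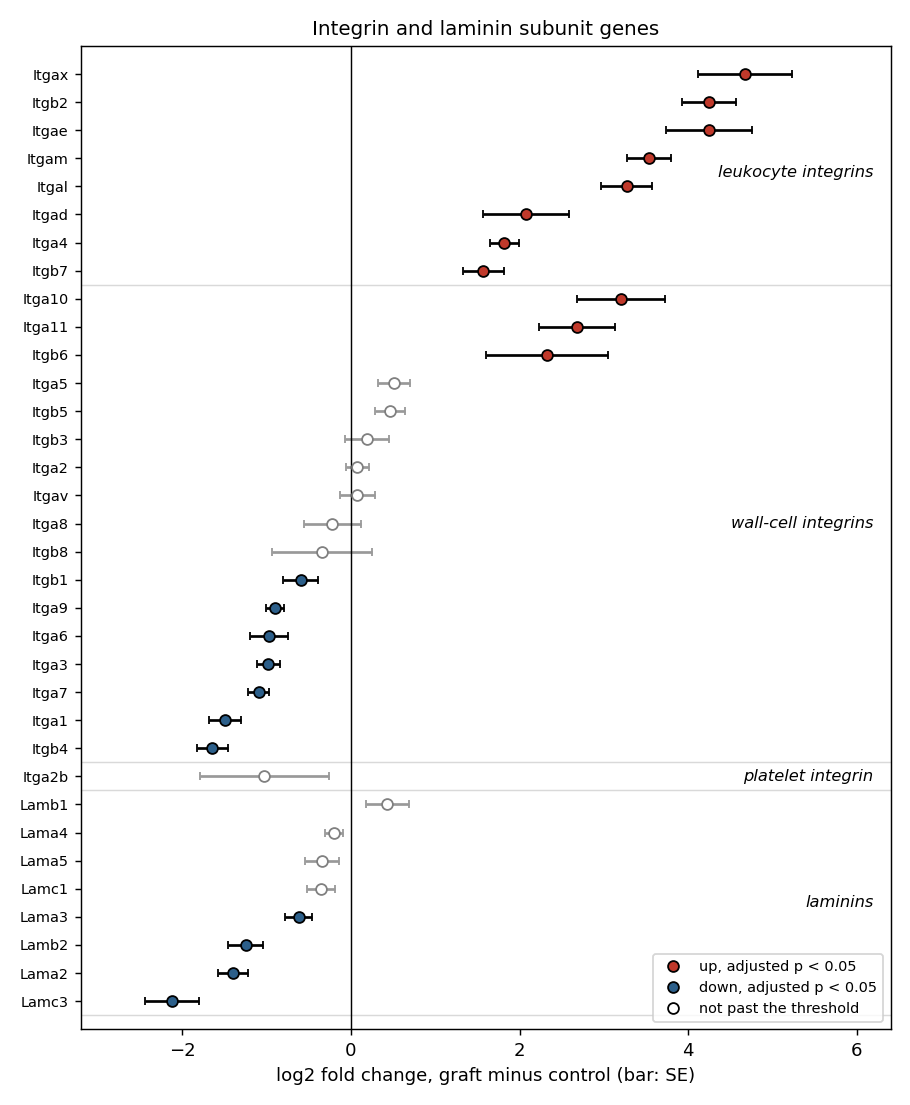
Log2 fold change of the integrin and laminin genes reported here, graft minus control, from the edgeR fit over 4 grafts and 4 controls, with bars for the standard error and genes ordered by value within their class. The 8 leukocyte integrins lie between 1.57 and 4.68, while the laminins shown lie between -2.12 and 0.43.

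Library totals ran from 10533451 to 16061189 counts in grafts and from 5981520 to 14267490 in controls, so that 3 counts correspond to 0.182 to 0.24 CPM in grafts and 0.225 to 0.56 CPM in controls (CPM are counts scaled to a common library size with TMM factors). All 5 smooth muscle markers fell, and their summed level was 1090 to 2400 CPM in grafts against 9800 to 16499 CPM in controls. Of 5 endothelial markers 4 fell, with sums of 1040 to 1351 CPM in grafts against 2676 to 4402 CPM in controls. The part of these cell types in the values below was not tested. In bulk tissue fewer cells of a type and less RNA per cell cannot be told apart. Of 4 fibroblast markers Col1a1 and Dcn fell and Pdgfra (-0.16) and Pi16 (-0.26) did not pass, and their sum, mostly Col1a1, was 14562 to 33872 CPM in grafts against 37013 to 73281 CPM in controls. Skeletal muscle markers, uneven in both groups, summed to 31 to 370 CPM in grafts against 25.3 to 1209 CPM in controls. Adipocyte markers summed to 83.7 to 138 CPM in grafts, against 293 and 541 CPM in controls 1 and 2 and 1479 and 1702 CPM in controls 3 and 4. All 4 fell, and the sum in grafts was nearly all Fabp4 (100.2 CPM on average), with Adipoq at 0.793 CPM in grafts and 378 CPM in controls. Controls 3 and 4 stood apart in adipocyte transcripts and in the Schwann cell gene Mbp, and control 1 in platelet transcripts, and the affected results are given with and without them.

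Itgb2, the beta subunit shared by the leukocyte integrins of the beta 2 family, stood at 206, 401, 199 and 426 CPM in grafts 1 to 4, against 20.5, 13.2, 18.1 and 12.7 CPM in controls 1 to 4. Every graft lay far above every control, with grafts 2 and 4 the highest. Its log2 fold change was 4.25 ± 0.32 (SE; edgeR adjusted p = 2.78e-05), from means of 308 ± 122 CPM in grafts and 16.1 ± 3.77 CPM in controls (SD, n = 4 each).

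The alpha subunits that pair with beta 2 all rose. Itgal, the partner that binds Icam1 on lymphocytes and other leukocytes, stood at 111, 155, 214 and 105 CPM in grafts, against 15.4, 16.3, 19.4 and 8.77 CPM in controls. The log2 fold change was 3.27 ± 0.30 (edgeR adjusted p = 5.1e-05), and graft 3 was the highest. Itgam, the partner of monocytes, macrophages and neutrophils that also binds complement fragments, had 114, 236, 154 and 219 CPM in grafts, against 11.5, 17.3, 18.3 and 15.3 CPM in controls. That is a rise of 3.53 ± 0.26 (edgeR adjusted p = 2.62e-05), and here, as for Itgb2, grafts 2 and 4 were the highest. Itgax, known from dendritic cells and macrophages, had the largest log2 fold change of all members, 4.68 ± 0.56 (edgeR adjusted p = 2e-04). It stood at 91.6, 174, 153 and 165 CPM in grafts and at 12.1, 2.29, 5.77 and 1.31 CPM in controls, so the controls differed among themselves more, relative to their mean, than the grafts did. Itgad, a further beta 2 partner known from macrophages, had 2.61, 4.43, 10.6 and 5.2 CPM in grafts, against 0.899, 2.09, 1.67 and 0.56 CPM in controls. It rose by 2.07 ± 0.51 (edgeR adjusted p = 0.00962), and with controls 3 and 4 left out it stood at 1.94 with an edgeR adjusted p of 0.0571. Itgam, Itgax and Itgad neighbour each other in the RefSeq annotation of GRCr8 and are related in sequence, so reads of one may have been counted to another or dropped.

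Outside the beta 2 family, Itga4, which pairs with beta 1 or beta 7 and binds Vcam1 and fibronectin, had the most even grafts of all members. It stood at 110, 111, 118 and 126 CPM in grafts, against 30.1, 37.5, 40.6 and 23 CPM in controls, a rise of 1.82 ± 0.17 (edgeR adjusted p = 6.25e-05). Itgae, the alpha subunit that retains T cells and dendritic cells at E-cadherin, reached 11.6, 11.7, 22.2 and 9.12 CPM in grafts, against 0.15, 0.697, 1.17 and 0.933 CPM in controls, a rise of 4.25 ± 0.51 (edgeR adjusted p = 0.000209). Its highest library was graft 3, which also had the highest Itgal. Itgb7, the beta subunit of Itgae and Itga4, had 10.1, 16.1, 20.5 and 13.9 CPM in grafts and 5.84, 5.38, 4.85 and 4.11 CPM in controls, a rise of 1.57 ± 0.24 (edgeR adjusted p = 0.000846). Graft 3 was again the highest, and the groups did not overlap. For all 8 leukocyte integrins the graft and control libraries were separate, as they were for 40.6% of all genes tested. All 3 pan-leukocyte, 5 macrophage and 4 T and NK cell markers rose as well. The macrophage markers summed to 684 to 1050 CPM in grafts against 116 to 173 CPM in controls, and the T and NK cell markers to 17.1 to 42.4 CPM in grafts against 0.373 to 4.72 CPM in controls. Pan-leukocyte markers summed to 552 to 933 CPM in grafts against 59.9 to 166 CPM in controls. Of 4 neutrophil markers 3 rose and Mpo fell, with sums of 10.7 to 81.2 CPM in grafts against 4.58 to 17.7 CPM in controls. The summed T and NK cell markers were, like Itgal, Itgad, Itgae and Itgb7, highest in graft 3. They stood there at 42.4 CPM, against 17.1 to 24.3 CPM in the other grafts, though Cd3d was highest in graft 2. The pan-leukocyte sum was also highest in graft 3, at 552, 876, 933 and 871 CPM in grafts 1 to 4, though its marker Laptm5 was highest in graft 4. The macrophage sums were 684, 965, 903 and 1050 CPM in grafts 1 to 4, and which graft was highest differed between its markers, with Cd68 highest in graft 2 and Aif1 in graft 3. The part of these cells in the integrin values was not tested.

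**Figure D2:**
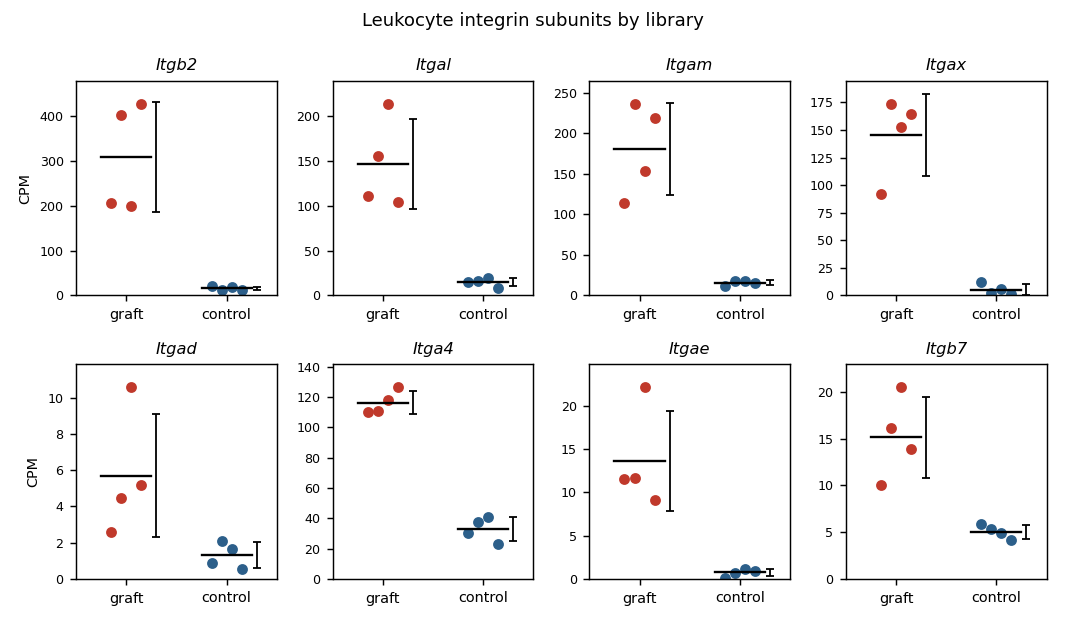
CPM of the 8 leukocyte integrin subunits in each library (points), with the group mean (line) and SD (bar), grafts in red and controls in blue, on linear axes that start at 0. In each panel the 4 grafts lie above the 4 controls. Itgb2 and Itgam are highest in grafts 2 and 4, Itgal, Itgad, Itgae and Itgb7 in graft 3.

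Ptprc, the surface phosphatase of all leukocytes, rose as well, by 2.55 ± 0.35 (edgeR adjusted p = 0.000467). Set against Ptprc within each library, which removes the scaling factor, the log2 ratio differed by 2.52 for Itgax, 1.53 for Itgb2 and -1.13 for Itgb7, graft minus control (exact two-sided permutation p = 0.0286 for each, the smallest the 8 libraries allow, and 0.0762 after Benjamini-Hochberg adjustment over the 8 ratios). The other differences were 0.61 for Itgal, 0.83 for Itgam, 1.66 for Itgae, -0.62 for Itgad and -0.81 for Itga4, with exact permutation p from 0.0571 to 0.143. None of the 8 ratios passed the threshold after adjustment with all libraries. Even at the smallest p, a ratio passes this adjustment only where most of the 8 ratios share that p. Passing or failing it therefore says little of any single ratio. Without control 4, the shallowest library, the ratios of Itgam (1.13), Itgax (2.33), Itgae (2.19), Itgb2 (1.73) and Itgb7 (-0.91) passed. Each then had the smallest exact permutation p possible, 0.0286, and an adjusted exact permutation p of 0.0457. With any other single library left out none passed (lowest adjusted exact permutation p = 0.0762). With Laptm5, another gene of all leukocytes, in place of Ptprc, the difference was -0.05 for Itgal and 0.16 for Itgam, 1.85 for Itgax, 0.86 for Itgb2 and 0.99 for Itgae, and -1.28 for Itgad, -1.47 for Itga4 and -1.79 for Itgb7. None of these passed either (lowest adjusted exact permutation p = 0.0914). The value for Itgal changed its sign with the marker, and the other 7 kept theirs.

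The stretches around the annotated start sites of Itgam, Itga4 and Itgb7 are printed as examples of the leukocyte integrins, which all rose. Those of Itga1 and Itga11 are printed because these collagen receptors moved in opposite directions. All stretches run from 250 bases before to 50 after the start, come from RefSeq on GRCr8 and were matched by symbol, which gave 28 of the 37 members. Itgam is at chr1:192089342-192089641 (plus strand), Itga4 at chr3:84569765-84570064 (plus strand), Itgb7 at chr7:135239022-135239321 (minus strand), Itga1 at chr2:48545234-48545533 (minus strand) and Itga11 at chr8:72041182-72041481 (plus strand). Capitals mark each match, on either strand, to 1 of 6 motifs: the PU.1 core GAGGAA, the RUNX motif TGTGGT, the GC box GGGCGG, the AP-1 motif TGANTCA, the Ets motif CCGGAA and the CArG box.
Itgam: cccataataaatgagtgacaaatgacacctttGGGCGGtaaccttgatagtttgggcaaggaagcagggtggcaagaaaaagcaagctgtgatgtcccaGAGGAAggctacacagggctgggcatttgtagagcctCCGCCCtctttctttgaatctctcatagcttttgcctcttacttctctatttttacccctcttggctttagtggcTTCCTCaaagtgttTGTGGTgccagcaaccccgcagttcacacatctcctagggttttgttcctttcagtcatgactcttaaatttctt
Itga4: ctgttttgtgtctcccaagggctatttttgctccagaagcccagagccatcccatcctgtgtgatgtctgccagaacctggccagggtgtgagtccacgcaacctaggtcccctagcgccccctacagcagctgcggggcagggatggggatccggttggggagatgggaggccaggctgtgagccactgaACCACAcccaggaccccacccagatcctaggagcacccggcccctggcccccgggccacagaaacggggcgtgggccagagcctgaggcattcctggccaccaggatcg
Itgb7: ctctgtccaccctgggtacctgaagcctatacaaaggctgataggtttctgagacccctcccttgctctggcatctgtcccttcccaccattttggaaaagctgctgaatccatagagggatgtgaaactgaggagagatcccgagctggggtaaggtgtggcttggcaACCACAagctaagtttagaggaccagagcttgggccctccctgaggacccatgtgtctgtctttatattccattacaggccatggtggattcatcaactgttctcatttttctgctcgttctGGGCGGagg
Itga1: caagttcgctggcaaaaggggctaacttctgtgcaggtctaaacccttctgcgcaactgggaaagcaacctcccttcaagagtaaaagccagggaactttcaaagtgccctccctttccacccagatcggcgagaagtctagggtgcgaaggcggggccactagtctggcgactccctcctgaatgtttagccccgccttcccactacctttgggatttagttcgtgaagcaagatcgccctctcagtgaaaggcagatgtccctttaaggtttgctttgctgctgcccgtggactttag
Itga11: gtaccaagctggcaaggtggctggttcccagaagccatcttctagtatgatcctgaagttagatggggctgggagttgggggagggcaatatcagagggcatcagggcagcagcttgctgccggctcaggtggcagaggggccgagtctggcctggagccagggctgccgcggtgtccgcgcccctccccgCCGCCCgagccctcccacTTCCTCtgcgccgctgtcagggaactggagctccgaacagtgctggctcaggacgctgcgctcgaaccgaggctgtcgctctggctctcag

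The RUNX letters stood in 4 of the 5 leukocyte integrin stretches in the table (Itgam, Itgae, Itga4 and Itgb7), in 1 of 13 of the wall-cell integrins (Itga9), in 0 of 9 of the laminins and in that of the platelet integrin Itga2b, against 17.3% of all 33469 stretches of the same length. The PU.1 core stood in 2 of 5, 5 of 13 and 5 of 9 of these classes, against 27.6% of all, and the GC box in 2 of 5, 8 of 13 and 5 of 9, against 33.1% of all. The AP-1 motif was found for Itgax and Lama3 (7.33% of all), the Ets motif for Itga3, Itga10, Itgb1 and Itga2b (14.95% of all) and the CArG box for Itgb6 and Lama2 (1.64% of all). Itga1 held a match to none of the 6 and Itga11 to the GC box and the PU.1 core. Itgam, Itga4 and Itgb7, whose stretches are printed, all held the RUNX letters, while that of Itgax, which did not hold them, is not printed. No matches overlapped in the stretches shown. These matches describe letters in a window and show no binding.

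Itga2b, the alpha subunit of the platelet fibrinogen receptor, did not pass the threshold (log2 fold change -1.03 ± 0.77, edgeR adjusted p = 0.309). Control 1 had 58.3 CPM, while the other libraries had 5.84 to 18.5 CPM in grafts and 5.6 to 7.53 CPM in controls. Without control 1 the value was 0.54, with an edgeR adjusted p of 0.307. Pf4 and Gp1ba, genes of platelets and megakaryocytes, were likewise highest in control 1 (140 and 9.89 CPM). The 5 platelet markers, Itga2b among them, summed to 26.7 to 41.2 CPM in grafts, against 215 CPM in control 1 and 14.4 to 22.2 CPM in the other controls. The part of platelet RNA in these values was not tested.

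The 4 alpha subunits that make the collagen receptors with beta 1 did not move together: Itga1 fell, Itga10 and Itga11 rose and Itga2 did not pass. Itga1, the collagen receptor of smooth muscle and other contractile cells, stood at 730, 697, 513 and 806 CPM in grafts, against 2021, 2191, 1549 and 1975 CPM in controls. The log2 fold change was -1.49 ± 0.19 (edgeR adjusted p = 0.000257), with every graft below every control. Itga11, which fibroblasts use to bind fibrillar collagen, stood at 31.1, 14.9, 14.2 and 18.9 CPM in grafts and at 5.47, 2.09, 3.26 and 0.933 CPM in controls, a rise of 2.68 ± 0.45 (edgeR adjusted p = 0.00134). Itga10, the collagen receptor known from chondrocytes, had 6.86, 4.88, 5.04 and 13.7 CPM in grafts, against 0.674, 0.398, 0.669 and 1.87 CPM in controls. It rose by 3.20 ± 0.52 (edgeR adjusted p = 0.00111), and graft 4 and control 4 were each the highest of their group. Counts in controls 1 to 4 were only 9, 4, 8 and 10 for Itga10, and 73, 21, 39 and 5 for Itga11. Itga2, which neighbours Itga1 in GRCr8, stood at 24.2 to 33.8 CPM in grafts and 25.8 to 30.9 CPM in controls, with a log2 fold change of 0.07 ± 0.14 (edgeR adjusted p = 0.697). The gene Pelo overlaps Itga1 in that annotation, and its own log2 fold change was -0.12 (edgeR adjusted p = 0.759).

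The 4 subunits grouped here as laminin receptors, Itgb4, Itga6, Itga7 and Itga3, all fell, while Itgb1, the common beta subunit, is described apart. Itgb4, the beta subunit that pairs only with alpha 6 and anchors cells to laminin through intermediate filaments, stood at 139, 108, 181 and 152 CPM in grafts, against 428, 369, 532 and 485 CPM in controls, a log2 fold change of -1.65 ± 0.18 (edgeR adjusted p = 0.000136). Its partner Itga6 had 209, 173, 248 and 216 CPM in grafts and 281, 332, 571 and 469 CPM in controls, with a log2 fold change of -0.97 ± 0.22 (edgeR adjusted p = 0.00723). Both were highest in controls 3 and 4 among controls and in graft 3 among grafts. Mbp, a myelin gene of Schwann cells, stood at 55.7 CPM in graft 3 and 10.8 to 13.5 CPM in the other grafts, against 647 and 592 CPM in controls 3 and 4 and 37.1 and 48.6 CPM in controls 1 and 2. Sox10, a transcription factor of Schwann cells, was likewise highest in graft 3 among grafts (50.3 CPM) and in controls 3 and 4 among controls (21.4 and 20.9 CPM). The part of Schwann cell RNA in these values was not tested. Without controls 3 and 4 Itgb4 still fell, at -1.46 (edgeR adjusted p = 0.00191), while Itga6 stood at -0.54 with an edgeR adjusted p of 0.0509.

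Itga7, the laminin receptor of muscle cells, had 79.7, 59.8, 72.7 and 70 CPM in grafts, against 155, 141, 137 and 170 CPM in controls, a log2 fold change of -1.09 ± 0.13 (edgeR adjusted p = 0.00016). Itga3, which binds the laminins of epithelial and endothelial basement membranes, had 20.9, 24.5, 22.6 and 25.1 CPM in grafts, against 39.3, 53.5, 43.5 and 47.2 CPM in controls. Its log2 fold change was -0.98 ± 0.13 (edgeR adjusted p = 0.000437). For both the libraries within a group lay close together and the groups did not overlap. Itga9, whose ligands include tenascin-C, fell, with a log2 fold change of -0.90 ± 0.11 (edgeR adjusted p = 0.000196), with means of 92.4 ± 8.03 CPM in grafts and 173 ± 10.6 CPM in controls (SD, n = 4 each).

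**Figure D3:**
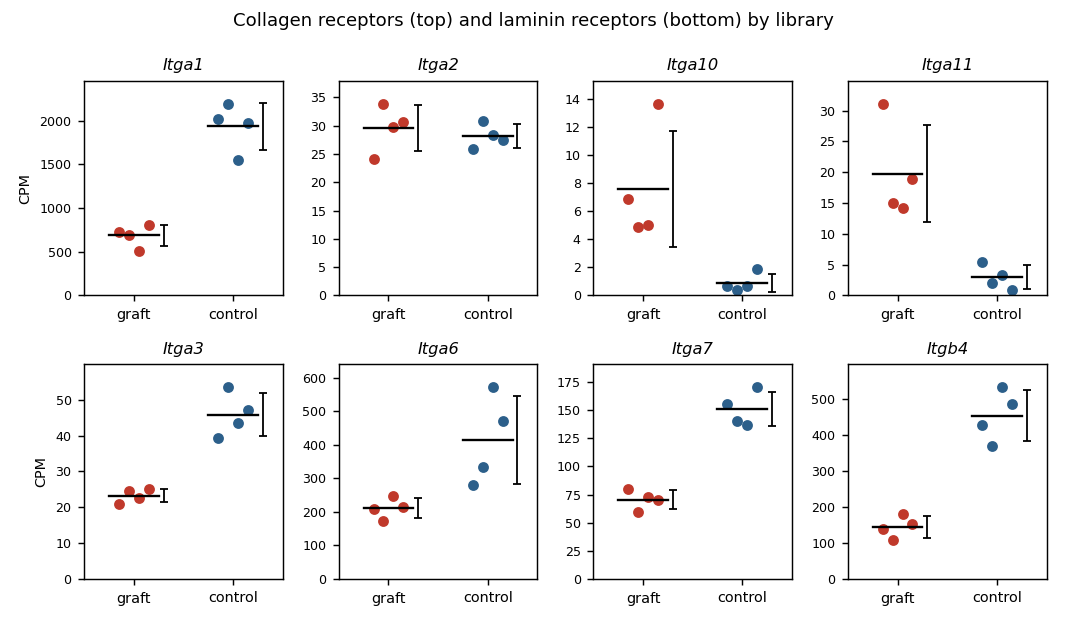
CPM of the 4 collagen receptor alpha subunits (top row) and the 4 laminin receptor subunits (bottom row) in each library, with group mean (line) and SD (bar), grafts in red left of controls in blue, axes from 0. Itga1 and all 4 laminin receptor subunits are lower in every graft than in any control, Itga10 and Itga11 are higher, and the groups overlap for Itga2.

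Itgb1, the common partner of the matrix-binding alpha subunits, had 1373, 1160, 790 and 1356 CPM in grafts, against 1548, 1851, 1529 and 2142 CPM in controls. The groups did not overlap, but the log2 fold change was small, -0.60 ± 0.21 (edgeR adjusted p = 0.0442). The call was lost when any 1 graft was left out (edgeR adjusted p from 0.0554 to 0.0951), without control 2, 3 or 4 (0.0505 to 0.127), and with library totals alone (0.106). It was also lost without controls 3 and 4 together (-0.53, edgeR adjusted p = 0.164) and with no low-count filter (edgeR adjusted p = 0.0597).

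The 7 subunits of receptors for the RGD sequence of fibronectin, vitronectin and latent TGF-beta mostly stayed below the threshold: Itgb6 rose and 6 did not pass. Itga5, the fibronectin receptor, averaged 190 ± 28.6 CPM in grafts and 133 ± 35.3 CPM in controls, with a log2 fold change of 0.51 ± 0.19 (edgeR adjusted p = 0.0554). Itgb5, a partner of alpha V, averaged 180 ± 30.9 CPM in grafts and 131 ± 26.2 CPM in controls, with a log2 fold change of 0.46 ± 0.18 (edgeR adjusted p = 0.0587). Both crossed the threshold without graft 3 (edgeR adjusted p = 0.0424 and 0.0217), without control 1 (0.00452 and 0.0148) and with DESeq2 (DESeq2 adjusted p = 0.0364 and 0.045). Itgav, the alpha subunit shared by most of these receptors, stood at 620, 677, 352 and 591 CPM in grafts and at 440, 536, 534 and 621 CPM in controls, with a log2 fold change of 0.07 ± 0.21. Graft 3 was the lowest of all libraries. The same graft was the lowest for Itga8, the alpha subunit of smooth muscle and mesenchymal cells, with 81.7 CPM against 215 to 309 CPM in the other grafts and 214 to 305 CPM in controls. Graft 3 also had the lowest summed smooth muscle markers (1090 CPM, against 1899 to 2400 CPM in the other grafts), a difference whose part was not tested. Over all libraries Itga8 stood at -0.22 ± 0.34 (edgeR adjusted p = 0.625).

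Itgb3, which pairs with alpha V in wall cells and with alpha IIb in platelets, had 45, 56, 39.5 and 38.1 CPM in grafts, against 63.8, 33.3, 28.6 and 30.8 CPM in controls. Control 1, the library with the highest Itga2b, was above all others. Over all libraries the log2 fold change was 0.19 ± 0.26 (edgeR adjusted p = 0.595), and without control 1 it was 0.53 (edgeR adjusted p = 0.0221), with every graft above the remaining controls. Leaving out the highest control of a gene favours a rise of that gene, so the second fit is no independent test.

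Itgb6 and Itgb8 pair with alpha V and are known to release active TGF-beta from its latent complex. Itgb6 rested on few counts, with 4.67, 0.526, 1.6 and 4.62 CPM in grafts and 0.449, 0.398, 1.09 and 0.187 CPM in controls. It rose by 2.33 ± 0.73 (edgeR adjusted p = 0.0277), but graft 2 lay below control 3. The call was lost without graft 1, graft 4, control 1, control 2 or control 4 (edgeR adjusted p from 0.058 to 0.074). It was also lost without controls 3 and 4 together (edgeR adjusted p = 0.0703), with a replicate block (edgeR adjusted p = 0.0678) and with limma voom (limma adjusted p = 0.113). Itgb8 had 47.7, 46.9, 72.1 and 30.1 CPM in grafts, against 14.5, 22.7, 113 and 100.4 CPM in controls, which were the more uneven group. The high libraries, controls 3 and 4 and graft 3, were those with the highest Mbp of their group. Its log2 fold change was -0.35 ± 0.60 (edgeR adjusted p = 0.668) over all libraries and 1.40 (edgeR adjusted p = 0.0219) without controls 3 and 4, so the direction depended on these libraries.

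**Figure D4:**
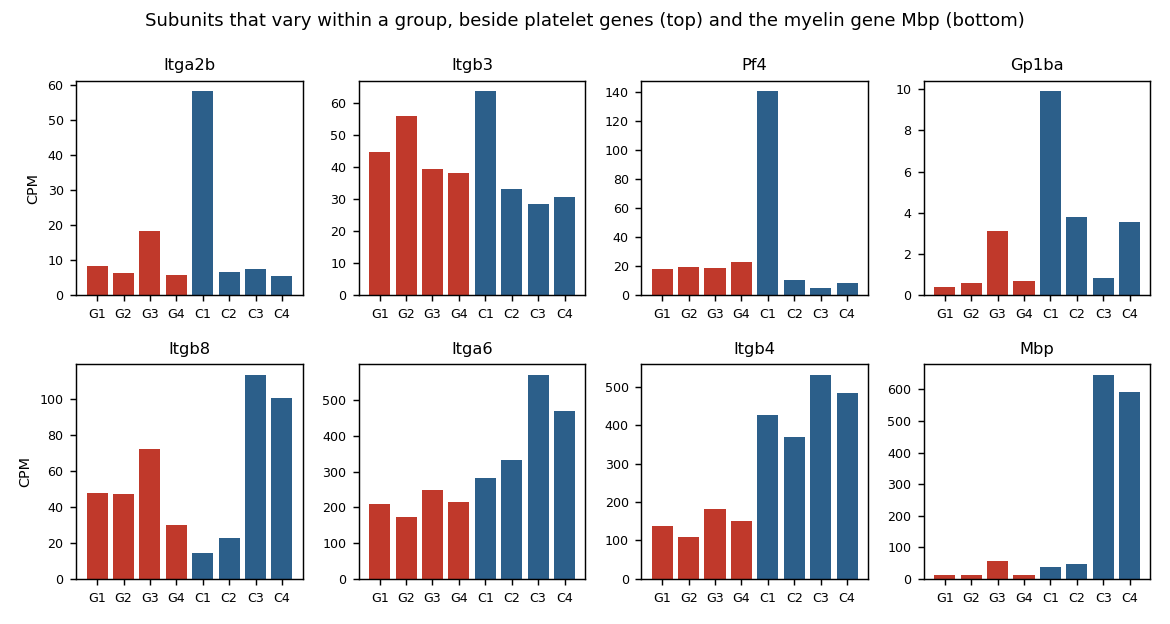
CPM by library (G1 to G4 grafts in red, C1 to C4 controls in blue, bars from 0) of Itga2b and Itgb3 beside the platelet genes Pf4 and Gp1ba (top), and of Itgb8, Itga6 and Itgb4 beside the myelin gene Mbp (bottom). Control 1 is the highest library in each top panel, and controls 3 and 4 are the highest in each bottom panel.

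Among the laminin alpha chains, Lama2, the chain of muscle and nerve basement membranes, showed the largest fall. It stood at 283, 207, 245 and 298 CPM in grafts, against 503, 669, 783 and 772 CPM in controls, a change of -1.40 ± 0.18 (edgeR adjusted p = 0.000323). No graft reached the lowest control, control 1, and without controls 3 and 4 Lama2 stood at -1.18 (edgeR adjusted p = 0.00429). Lama4 and Lama5, the alpha chains of endothelial basement membranes, did not pass. Lama4 averaged 252 ± 18.7 CPM in grafts and 291 ± 15 CPM in controls (SD, n = 4 each), at -0.21 ± 0.11 (edgeR adjusted p = 0.146). Lama5 averaged 291 ± 33.2 CPM in grafts and 369 ± 110 CPM in controls, at -0.34 ± 0.20 (edgeR adjusted p = 0.203), and control 1 was its highest library with 521 CPM. The defining endothelial markers differed among themselves: Vwf, Emcn, Tek and Pecam1 fell, and Cdh5 stood at -0.23 and did not pass.

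Of the beta chains, Lamb2, found in the basement membranes of vessel wall and muscle, stood at 432, 377, 350 and 497 CPM in grafts, against 1291, 1054, 704 and 886 CPM in controls. Its log2 fold change was -1.25 ± 0.21 (edgeR adjusted p = 0.00117), and the groups did not overlap. Lamb1, the beta chain of early and many adult laminins, had 496, 444, 330 and 438 CPM in grafts and 203, 235, 398 and 431 CPM in controls. With all libraries it stood at 0.43 ± 0.25 and did not pass (edgeR adjusted p = 0.196). Without controls 3 and 4 it was 0.97 higher on the log2 scale (edgeR adjusted p = 0.0112), the only laminin rise in any of the 15 alternative fits. Controls 3 and 4, the high ones for Lamb1, were those with the most adipocyte transcripts and Mbp.

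Lamc1, the gamma chain of most laminins, averaged 834 ± 137 CPM in grafts and 1064 ± 133 CPM in controls, at -0.35 ± 0.17 (edgeR adjusted p = 0.117). Lamc3 had 2.43, 1.28, 3.52 and 3.53 CPM in grafts and 13.7, 10.5, 13.1 and 9.52 CPM in controls, at -2.12 ± 0.32 (edgeR adjusted p = 0.000699). Lama3, an alpha chain of epithelial laminin, had 49.1, 44.9, 54.6 and 60.5 CPM in grafts, against 100.5, 82.3, 76.3 and 61.6 CPM in controls, and fell (log2 fold change -0.62 ± 0.16, edgeR adjusted p = 0.0128). The highest graft nearly reached the lowest control, and with library totals alone Lama3 did not pass (edgeR adjusted p = 0.105). Lamb3, a beta chain of epithelial laminin, was under the filter, with 48 counts in all grafts and 7 in all controls. Keratin genes of the epithelium that makes this laminin were at or near 0, with no counts of Krt14 in any library and at most 0.335 CPM of Krt5, while the 4 epithelial markers with Epcam and Cdh1 summed to 6.93 to 23.2 CPM in grafts against 1.35 to 25.6 CPM in controls. Lama1, a chain of embryonic basement membranes, had 1 count in grafts and 1 in controls, which sets no direction.

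**Figure D5:**
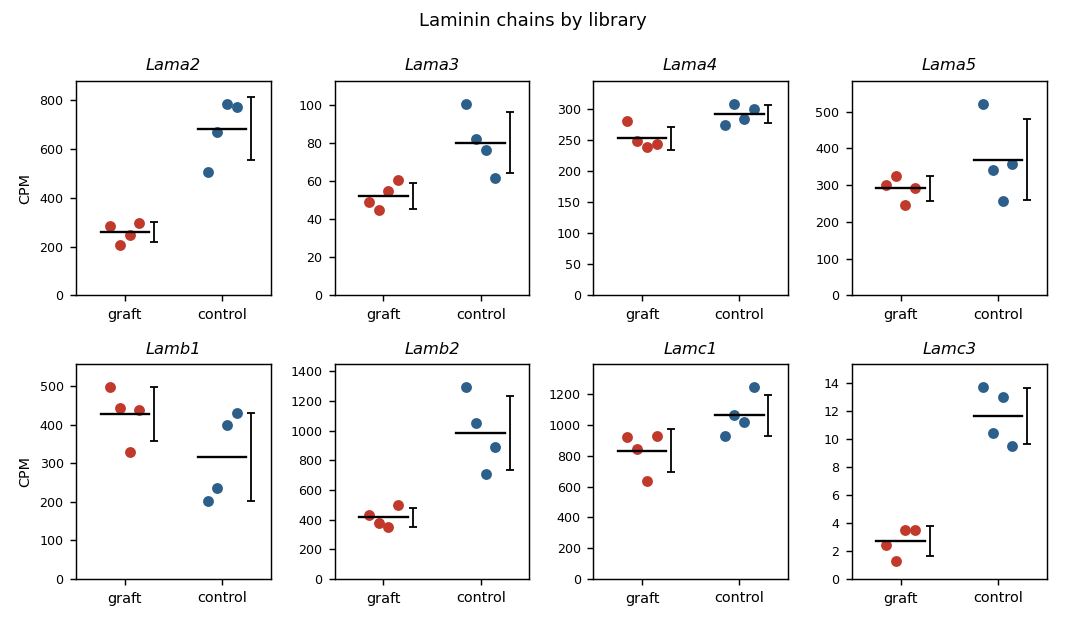
CPM of the laminin chains reported here in each library, with group mean (line) and SD (bar), grafts in red left of controls in blue, axes from 0. Lama2, Lama3, Lamb2 and Lamc3 are lower in every graft than in any control, while Lama4, Lama5, Lamb1 and Lamc1 overlap.

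The genes that act with these receptors were described from 3 further lists. Of 27 tested adaptors that link integrins to actin or signal from them, 8 rose and 8 fell, beside 21.0% up and 21.3% down over all genes, with a median log2 fold change of -0.03. The rises with the smallest p were Tns3, a tensin of focal adhesions (1.82 ± 0.14, edgeR adjusted p = 3.2e-05), and Parvg, the parvin of blood cells (4.32 ± 0.42, edgeR adjusted p = 7.02e-05). The corresponding falls were those of Kank1 (-3.10 ± 0.32, edgeR adjusted p = 9.14e-05), a protein of the rim of adhesions, and Tns1, another tensin (-1.57 ± 0.18, edgeR adjusted p = 0.000157). Among kindlins, which activate integrins, the blood cell form Fermt3 averaged 94.2 ± 21.3 CPM in grafts and 13.4 ± 5.21 CPM in controls and rose, while the form of other cells, Fermt2, averaged 257 ± 31.4 CPM in grafts and 450 ± 50.2 CPM in controls and fell. Of the other parvins, Parva fell (-0.57), as did its partner Ilk (-0.65), while Parvb rose (0.53). The talins did not pass (Tln1 -0.01, Tln2 -0.09). Apart from the 4 given by smallest p, these adaptors were picked after their values were seen.

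Of 26 basement membrane partners, which join laminins to collagen IV and to the cell surface, 6 rose and 12 fell, beside 21.0% up and 21.3% down over all genes (median -0.57). Col18a1, a basement membrane collagen with heparan sulfate chains, averaged 1122 ± 190 CPM in grafts and 452 ± 29.7 CPM in controls and rose (log2 fold change 1.31, edgeR adjusted p = 0.000189). Fbln2, a fibulin of the matrix, averaged 589 ± 119 CPM in grafts and 181 ± 40.9 CPM in controls and rose too (1.70, edgeR adjusted p = 0.000206). Dmd, dystrophin, which ties actin to the laminin receptor dystroglycan, averaged 40.2 ± 7.94 CPM in grafts and 221 ± 23.6 CPM in controls, a log2 fold change of -2.46 ± 0.16 (edgeR adjusted p = 2e-05). Col4a4, a collagen IV chain of specialised basement membranes, stood at -2.81 ± 0.24 (edgeR adjusted p = 3.84e-05). Of the other collagen IV chains, Col4a3, Col4a5 and Col4a6 fell too, while Col4a1 (0.70, edgeR adjusted p = 0.026) and Col4a2 (0.53, edgeR adjusted p = 0.0427), the chains found in most basement membranes, rose. The groups overlapped for both, with control 4 above graft 3 (2098 against 2076 CPM for Col4a1, 1541 against 1443 CPM for Col4a2). Pxdn, the peroxidase that crosslinks collagen IV (1.16), and Smoc2 (1.76) rose as well. Dystroglycan itself (Dag1), the 4 sarcoglycans listed, utrophin (Utrn) and the laminin alpha 5 receptor Bcam also fell, with log2 fold changes from -2.46 for Bcam to -0.52 for Dag1. The nidogens, which bridge laminin and collagen IV, did not pass (Nid1 0.48, Nid2 0.27). Apart from the 4 with the smallest p, these partners were picked after their values were seen.

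Of 23 integrin ligands tested, 9 rose and 7 fell, beside 21.0% up and 21.3% down over all genes (median 0.22). Tnc, tenascin-C, averaged 2087 ± 961 CPM in grafts and 81.5 ± 17.2 CPM in controls, and Edil3, an RGD protein that binds alpha V integrins, 12.4 ± 6.91 CPM in grafts and 0.213 ± 0.211 CPM in controls. Both rose, with log2 fold changes of 4.68 ± 0.36 for Tnc (edgeR adjusted p = 3.04e-05) and 5.63 ± 0.62 for Edil3 (edgeR adjusted p = 0.000128). Jam3 and Jam2, junction proteins to which leukocyte integrins bind, stood at -1.09 ± 0.13 (edgeR adjusted p = 0.000232) and -1.36 ± 0.18 (edgeR adjusted p = 0.000322). Icam1, which Itgal binds, rose, at 0.54 ± 0.16 (edgeR adjusted p = 0.0231). The listed ligands Icam2 (-0.73, edgeR adjusted p = 0.00521) and F11r (-0.81, edgeR adjusted p = 0.000759) fell. Icam1, Icam2 and F11r were picked after their values were seen. Fn1, the main ligand of Itga5, picked after its values were seen, averaged 11906 ± 3772 CPM in grafts and 3650 ± 343 CPM in controls and rose by 1.71 ± 0.27 (edgeR adjusted p = 0.000969), while Vcam1, the ligand of Itga4, stood at 0.72 ± 0.42 and did not pass (edgeR adjusted p = 0.193).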

How the data were processed

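RNA of 4 graft and 4 control rat veins was sequenced from Illumina libraries. HISAT2 2.0.4 and the build Rnor_6.0 are named in the submitters' processing notes. Counter, annotation release and strand setting: not given in the sources used here. Reads of overlapping genes may therefore not be told apart, which touches Itga1, Itga4, Itga7, Itgae, Itgb1 and Itgb7. The table the authors deposited holds raw counts, 1 whole number for each gene and library.

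Groups come from the titles. In R 4.3.3, edgeR 4.0.16 was run with filterByExpr (minimum count of 10), TMM factors, glmQLFit and glmQLFTest, and p-values were adjusted by Benjamini-Hochberg over 15464 genes. A standard error is the size of the log2 fold change over the square root of F. Limma 3.58.1 (voom), DESeq2 1.42.0, other scalings, no filter, a replicate block and left-out libraries were tried as alternatives. The test was tested on simulated data.

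Members and lists were chosen with earlier results of these data known. Some items are counted in the totals but not reported here. All other members are described, and of each partner list the 2 genes with the smallest p in each direction. Log-ratios to Ptprc used a prior count of 0.5. Replicate libraries differed by more than sampling noise and were each counted as 1 sample. The labels do not say that the replicates of a group are separate animals, so p-values measure the spread between these libraries. Shares of chains per coding length were not run, since no lengths were used here, and levels of different genes are not compared.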

Additional observations from a re-analysis of the deposited data

Results flagged for a closer look

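Among the 35 tested members, each examined in both groups (70 sets of 4 libraries), 2 sets held a library far from the other 3 of its group, both in control 1. Itga2b stood at 58.3 CPM there, against 5.6 to 7.53 CPM in the other controls. Itgb3 stood at 63.8 CPM there, against 28.6 to 33.3 CPM in the other controls. Chance flags about 1 in 20 such sets. Pf4 was at 140 CPM in control 1 and at 5.02 to 10.7 CPM in the other controls, and Gp9 and Ppbp, 2 further platelet genes, at 3.97 and 2.62 CPM against at most 0.797 CPM. Their part in the values of Itga2b and Itgb3 was not tested.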

How the results depend on the processing

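Across the alternatives for the 35 tested members, 489 single-gene values kept their call or their lack of one, 21 lost a call, 13 gained one and 1, Itgb8 without controls 3 and 4 (1.40), turned its direction and passed the threshold. All 8 leukocyte integrins rose in every alternative except without controls 3 and 4, where 7 did. Wall-cell rises numbered 5 instead of 3 with library totals alone and 5 with DESeq2, and from 2 to 5 with 1 library left out (5 without graft 3 or control 1). Wall-cell falls numbered 6 instead of 7 with library totals alone and with no low-count filter, and 5 without controls 3 and 4. With 1 library left out they numbered 6 or 7 (7 only without control 1). Laminin falls numbered 5 in every alternative except library totals alone (4), and laminin rises 1 without controls 3 and 4. Adaptor rises numbered 5 without controls 3 and 4 and from 5 (without control 3) to 11 (without control 1) with 1 library left out. Library totals alone gave 4558 rises and 2164 falls over all genes, against 3250 and 3288. A replicate block on the title numbers gave 3042 rises and 2860 falls over all genes, with 12 members rising and 12 falling, Itga5 and Itgb5 crossing the threshold and Itgb6 not. The numbers were not treated as pairs, since same-numbered libraries correlated from -0.07 to 0.18 in their deviations and not every library correlated best with its own number. Of the 8 log-ratios to Ptprc, 0 passed with all libraries, 5 without control 4 (adjusted exact permutation p = 0.0457) and 0 with any other single library left out. These numbers depend on how many ratios share the smallest exact p possible. Where calls changed, the cause was not tested. DESeq2 gave no adjusted p for Itga2b, and the planned chain shares per coding length and their alternative were not run. In control 4, the shallowest library with 5981520 counts, 3 counts correspond to 0.56 CPM. This limits what can be said of Itgae, Itgad, Itgax, Itga10, Itga11, Itgb6 and Lamb3.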

Other observations

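Members that neighbour each other in the GRCr8 RefSeq annotation did not all move alike. Itgam, Itgax and Itgad stand in a row and all rose, by log2 fold changes of 3.53, 4.68 and 2.07. Itga1 and Itga2 are neighbours, and Itga1 stood at -1.49 and Itga2 at 0.07. The differences between neighbours were not tested.

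Itgae encloses Haspin, a kinase gene of dividing cells listed under its older symbol Gsg2, which averaged 7.65 CPM in grafts and 4.17 CPM in controls and rose by 0.86 (edgeR adjusted p = 0.0142). Its part in the counts of Itgae was not tested. Znf740, which overlaps Itgb7, stood at -0.14 and Cerkl, which overlaps Itga4, at -1.01, both opposite in sign to the integrin and not past the threshold.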
